A study of Mus musculus with 12 samples.

Results

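The clustered histone genes were taken as the protein-coding genes of the GENCODE M21 annotation of the mouse genome (mm10, GRCm38) whose symbols start with Hist1h, Hist2h, Hist3h or Hist4h. There were 67 of them among 21911 protein-coding genes. The Hist1 cluster on chromosome 13 held 54, the Hist2 cluster on chromosome 3 held 10, the Hist3 cluster on chromosome 11 held 2, and Hist4h4 stood alone on chromosome 6. By histone type they were 6 H1, 18 H2A, 18 H2B, 12 H3 and 13 H4 genes.

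ChIP-seq (chromatin immunoprecipitation with sequencing) of adult mouse liver gave the positions of H3K9ac, the acetylation of histone H3 on lysine 9 that is found at active promoters. Of the 6 libraries with this antibody, 2 were from the inbred strain C57BL/6J (B6) and 2 from MSM/Ms (MSM), while the reciprocal F1 hybrids gave 1 each, named mother first: F1 BM had a B6 dam and MSM sire, F1 MB the reverse. The labels name no treatment, targeted allele or transgene for any group, and the parental libraries of a strain came from different individuals. The design asks whether acetylated promoters differ between the strains and what the reciprocal hybrids show.

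Histone genes of these clusters are known as the replication-dependent histone genes. They supply the histones that package new DNA and are transcribed mainly in S phase, and most of their messages end in a conserved stem-loop instead of a poly(A) tail. H2A, H2B, H3 and H4 form the nucleosome core, while the H1 linker histones bind the DNA where it enters and leaves the nucleosome. Adult liver consists largely of resting hepatocytes. A few genes of the clusters are known to also give polyadenylated messages in resting cells, and Hist1h1t, Hist1h2aa and Hist1h2ba are known as male germ cell genes.

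Promoter sequences from RefSeq (GRCm38) were matched to 62 of the 67 genes, and those shown first are of 2 divergent H2A and H2B gene pairs that differed in their peaks. In such a pair the genes lie head to head and share the sequence between their starts. Hist2h2ac and Hist2h2be had a peak in 6 of 6 lists, and Hist1h2ac and Hist1h2bc had none within 1 kb of the start. The stretches run from 250 bases before to 20 bases after the RefSeq start of the H2A gene, on its strand. Capitals mark the octamer motif ATTTGCAT, the CCAAT box and the TATA box TATAAA, each searched on both strands, so ATTGG and ATGCAAAT are matches on the other strand, and no motif contains another.
Hist2h2ac (chr3:96220861-96221130, minus strand): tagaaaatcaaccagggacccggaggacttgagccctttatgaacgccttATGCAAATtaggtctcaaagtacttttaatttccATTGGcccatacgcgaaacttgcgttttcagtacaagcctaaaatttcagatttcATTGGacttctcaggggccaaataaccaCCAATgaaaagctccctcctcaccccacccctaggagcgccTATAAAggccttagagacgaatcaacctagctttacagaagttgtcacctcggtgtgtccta
Hist1h2ac (chr13:23683940-23684209, minus strand): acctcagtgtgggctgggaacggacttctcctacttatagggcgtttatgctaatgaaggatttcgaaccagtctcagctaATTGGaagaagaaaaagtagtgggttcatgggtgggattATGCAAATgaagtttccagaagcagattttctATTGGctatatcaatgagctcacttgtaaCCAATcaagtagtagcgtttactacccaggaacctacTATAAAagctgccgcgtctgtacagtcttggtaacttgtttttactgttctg

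Both pairs carry an octamer match, CCAAT boxes and a TATA box in these stretches. The H4 genes have other promoters, and those printed next are of Hist1h4h and Hist4h4, which had a peak in 6 of 6 lists, and of Hist1h4a, which had one in 0. They run from 150 bases before to 20 bases after the RefSeq start, with the same motifs in capitals.
Hist1h4h (chr13:23530894-23531063, plus strand): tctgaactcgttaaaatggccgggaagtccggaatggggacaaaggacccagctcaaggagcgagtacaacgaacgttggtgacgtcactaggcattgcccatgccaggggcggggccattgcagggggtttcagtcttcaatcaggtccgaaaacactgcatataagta
Hist4h4 (chr6:136804412-136804581, minus strand): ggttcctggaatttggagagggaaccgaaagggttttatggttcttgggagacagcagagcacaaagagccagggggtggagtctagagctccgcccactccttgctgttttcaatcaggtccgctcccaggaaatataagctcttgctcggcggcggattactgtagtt
Hist1h4a (chr13:23761230-23761399, minus strand): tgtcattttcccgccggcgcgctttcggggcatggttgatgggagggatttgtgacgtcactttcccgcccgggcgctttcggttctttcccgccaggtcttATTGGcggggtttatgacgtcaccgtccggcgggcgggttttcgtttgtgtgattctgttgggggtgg

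The third set is of the linker genes Hist1h1c and Hist1h1e, which had peaks in 5 and 4 lists, and Hist1h1a, which had none. Here the capitals also mark the H1 box, AAACACA, a motif of H1 gene promoters.
Hist1h1c (chr13:23738657-23738826, plus strand): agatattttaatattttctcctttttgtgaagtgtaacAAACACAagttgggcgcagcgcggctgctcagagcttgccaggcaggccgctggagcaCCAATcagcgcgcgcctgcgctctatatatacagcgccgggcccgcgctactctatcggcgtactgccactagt
Hist1h1e (chr13:23622539-23622708, minus strand): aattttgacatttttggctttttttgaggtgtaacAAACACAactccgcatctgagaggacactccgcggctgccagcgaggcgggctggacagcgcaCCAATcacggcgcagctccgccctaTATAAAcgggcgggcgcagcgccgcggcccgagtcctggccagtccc
Hist1h1a (chr13:23763518-23763687, plus strand): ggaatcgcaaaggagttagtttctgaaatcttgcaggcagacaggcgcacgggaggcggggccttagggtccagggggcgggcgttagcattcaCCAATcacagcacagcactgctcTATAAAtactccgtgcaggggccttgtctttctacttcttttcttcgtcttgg

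The CCAAT box was present in 53 of the 62 promoters of 300 bases (85.5%), against 37.4% of 32851 RefSeq promoters of the same length. It was in each of the 6 H1, 18 H2A, 16 H2B and 10 H3 promoters, and in 3 of 12 H4 promoters (25%). The octamer was found in 7 of 18 H2A promoters (38.9%) and 6 of 16 H2B promoters (37.5%) and in none of the H1, H3 and H4 promoters, against 1.74% of all promoters. TATAAA was in 35 of 62 (56.5%, against 13.6% of all) and the H1 box in 5 of 6 H1 promoters (83.3%, against 7.18% of all). These counts describe letters in a window only.

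The 16-base stem-loop of histone messages was searched in each gene with the 100 bases after its annotated end, on the gene's strand. The form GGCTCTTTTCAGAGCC was found in 41 genes and the form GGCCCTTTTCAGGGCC in 8. The other 18 genes had no exact match to either form there. Of the genes of Hist2, Hist3 and Hist4, 8 had the first form and 1 the second.

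A gene was counted with a peak when a peak of the library's list overlapped a window reaching 1 kb to both sides of its annotated start (transcription start site, TSS). Peaks were found at 19 and 15 of the 67 histone genes in B6 replicates 1 and 2, at 13 and 12 in MSM replicates 1 and 2, at 13 in F1 BM and at 11 in F1 MB. These are 28.4% and 22.4% in B6, 19.4% and 17.9% in MSM, 19.4% in F1 BM and 16.4% in F1 MB. Over all protein-coding starts the shares were 44.2% and 27.9% in B6, 35.5% and 36.2% in MSM, 35.3% in F1 BM and 31.7% in F1 MB. Histone genes had the lower share in every list.

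There were 10 histone genes with a peak in all 6 lists (14.9%, against 23.6% of all starts), 20 with a peak in at least 1 list and 47 with a peak in none (70.1%, against 54.2% of all starts). Genes of a cluster lie close together and can share a peak, since the 67 windows join into 38 separate stretches. In B6 replicate 1 the 19 genes with a peak stood for 26 distinct peaks in 12 stretches, and in F1 MB the 11 genes stood for 9 peaks in 7 stretches. The genes are therefore not independent of each other.

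Peaks were unevenly spread over the clusters. In Hist2, 8 to 10 of the 10 genes had a peak in a list (80 to 100%), and 8 had one in all 6 lists. In Hist1, 2 to 7 of the 54 genes had a peak in a list (3.70 to 13.0%), 1 gene had one in all 6 lists, and 46 had none in any. The mean length under peaks in the 2001-bp window ranged from 669.2 to 1351 bp over the lists for Hist2 genes and from 14.2 to 117 bp for Hist1 genes. Over all starts it ranged from 177.9 bp in B6 replicate 2 to 415.4 bp in B6 replicate 1. The ranges of Hist1 and Hist2 did not overlap in any of these measures. No test was made between the clusters, since the genes of each share sequence and peaks.

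**Figure D1:**
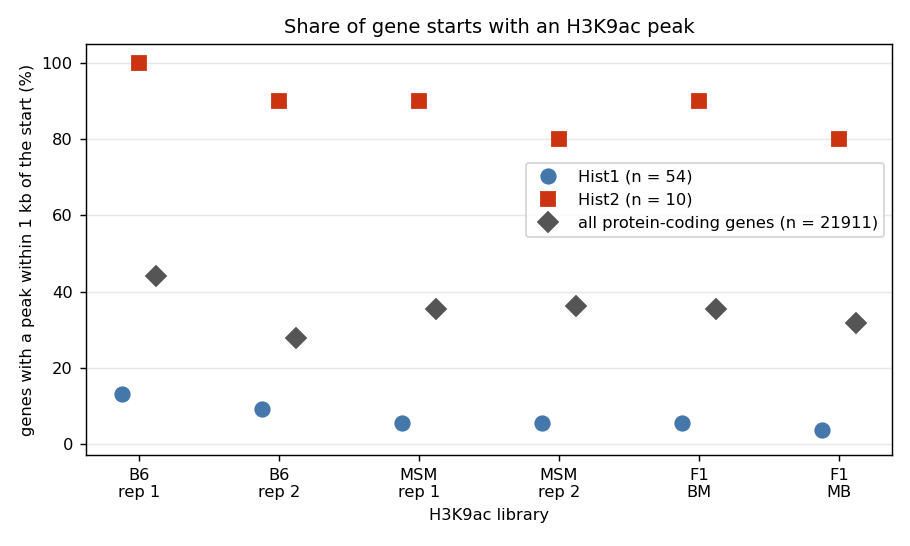
Share of genes with an H3K9ac peak within 1 kb of the start (y axis, %) in each of the 6 libraries (x axis), for the 54 Hist1 genes (circles), the 10 Hist2 genes (squares) and all 21911 protein-coding genes (diamonds). Hist2 lies between 80 and 100% and Hist1 between 3.70 and 13.0%, with all genes between 27.9 and 44.2%.

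By histone type, the counts followed the clusters. Of the 13 Hist1 H2A genes, 0 had a peak in any list, while the 4 Hist2 H2A genes had one in all 6. Of the 15 Hist1 H2B genes, 2 had a peak in at least 1 list, and both were found in B6 libraries only. Of the 9 Hist1 H3 genes 2, of the 11 Hist1 H4 genes 2 and of the 6 H1 genes 2 had a peak in at least 1 list. Of all protein-coding starts, 45.8% had one in at least 1 list. Over all clusters, 4 of 18 H2A, 1 of 18 H2B, 2 of 12 H3, 3 of 13 H4 and 0 of 6 H1 genes had a peak in all 6 lists. These are 22.2%, 5.56%, 16.7%, 23.1% and 0%, against 23.6% of all starts. The H2A and H4 shares were thus near that of all starts.

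Hist1 falls into 3 sub-clusters, taken as runs of genes whose neighbouring starts are at most 200 kb apart, and the spans given here reach 1 kb past the outer starts. The sub-cluster at chr13:21715143-21834743, with 18 genes, and the one at chr13:22034568-22044214, with 5 genes, had no peak within 1 kb of a histone gene start in any list. The third, at chr13:23530050-23935462, held 31 histone genes and all peaks within 1 kb of a Hist1 start, with 7 and 5 genes in B6, 3 and 3 in MSM, 3 in F1 BM and 2 in F1 MB. It also holds 6 other protein-coding genes. Of these, Hfe, a regulator of hepatic iron sensing, and the solute carriers Slc17a1, Slc17a2, Slc17a3 and Slc17a4 had a peak in all 6 lists, and Trim38 had none. In the same 405 kb, 23 of the 31 histone genes had no peak in any list.

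The Hist1 gene with a peak in all 6 lists was Hist1h4h, an H4 gene at chr13:23531050-23531519 on the plus strand. The fold enrichment given by the authors for its highest peak was 4.47 and 3.78 in B6, 3.76 and 3.38 in MSM, 3.16 in F1 BM and 4.36 in F1 MB. In 5 lists this peak had its summit at -411 to -332 bp from the start, negative values being upstream. In MSM replicate 1 the highest peak was another one, with its summit 479 bp downstream, and the upstream peak there had a fold of 3.32. Both B6 folds lay above both MSM folds with either peak. Folds of different lists are not on 1 scale, since the median fold over all starts with a peak was 7.17 and 5.05 in B6, 5.86 and 5.91 in MSM, 3.84 in F1 BM and 5.17 in F1 MB. Ranked among all gene starts with a peak in the same list, the highest peak stood at the 13.5 and 16.3 percentile in B6, 8.88 and 4.43 in MSM, 27.5 in F1 BM and 29.9 in F1 MB. By rank both F1 libraries were above all 4 parental libraries, but these ranks were taken in lists of unequal length. Among the starts with a peak in all 4 parental lists Hist1h4h stood at 2.50 and 15.0 in B6 and 5.06 and 2.20 in MSM. The F1 libraries were not ranked that way or in lists of equal length, so their order was not tested.

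Of the linker histone genes, Hist1h1c and Hist1h1e, both known for expression in many differentiated tissues, had peaks. Hist1h1c, at chr13:23738808-23740367, had folds of 5.60 and 3.08 in B6, 3.56 in MSM replicate 1, 2.96 for F1 BM and 4.08 for F1 MB, and no peak in MSM replicate 2. Hist1h1e, at chr13:23620629-23622558, had folds of 6.97 and 3.46 in B6 and 3.03 and 3.29 in MSM and no peak in either F1 library. For Hist1h1e both MSM folds were below both B6 folds.

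The linker genes Hist1h1a, Hist1h1b, Hist1h1d and the testis gene Hist1h1t had no peak within 1 kb in any list, and in each of their windows 100% of 50-base words were unique in the genome. Hist1h1d needs a remark, since its annotated start lies 1828 bp from its coding start and its window holds 10 CpG sites. When the window was placed at the coding start instead, Hist1h1d had a peak in B6 replicate 1 (fold 3.92) and in F1 BM (fold 3.11). The germ cell genes Hist1h2aa and Hist1h2ba, whose windows were 92.9% unique, had no peak in any list.

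Hist1h3c and Hist1h2bb, an H3 and an H2B gene in overlapping windows, were the only histone genes with a peak in both B6 lists and neither MSM list. They share 1 peak, with a fold of 4.0 in B6 replicate 1 and 3.19 in B6 replicate 2, and neither F1 list had it. The 2 genes are 1 stretch, and 0.844% of all starts were called this way. No histone gene had a peak in both MSM lists and neither B6 list, against 0.292% of all starts. The B6 call was lost when peaks were limited to a −log10 q of at least 5 or when every list was trimmed to the same covered length, with 0 genes in each case. The windows of Hist1h3c and Hist1h2bb were 78.6 and 83.2% unique. A limit of at least 90% unique words therefore leaves both genes out and does not test the call. Without B6 replicate 2 the count was 6, without MSM replicate 1 it was 4, and without MSM replicate 1 there was also 1 gene with a peak in the remaining MSM list and neither B6 list. The shares of all starts called with 1 library left out were not computed. These counts therefore cannot be set against all starts.

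The other Hist1 peaks were seen in 1 or 2 lists. Hist1h4c had a peak in MSM replicate 2 (fold 4.02) and F1 BM (2.48), Hist1h3e in B6 replicate 1 (3.96), and Hist1h2be in B6 replicate 1 (5.63). The annotated start of Hist1h2be is 35168 bp from its coding start and lies inside Hist1h1e, and so does this peak. At its coding start Hist1h2be had a peak in F1 BM instead (fold 2.58).

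Some histone genes had a peak just outside the window. Of the 47 genes with none within 1 kb, 5 had one between 1 and 2 kb in at least 1 list. For the pair Hist1h2ac and Hist1h2bc, whose shared promoter is printed in the opening, a peak lay 1071 to 1156 bp downstream of the Hist1h2bc start in 4 lists. Its fold was 2.98 in B6 replicate 1, 3.24 in MSM replicate 1, 2.58 for F1 BM and 3.63 for F1 MB, and B6 replicate 2 and MSM replicate 2 had none. Hist1h1b had a peak 1406 to 1583 bp downstream in 3 lists, with folds of 3.21 to 3.71. For the 47 genes the median distance to the nearest peak was 42883 bp, taken as the median over genes of each gene's median over lists.

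In the Hist2 cluster, chr3:96218865-96270752, every gene had a peak in at least 1 list. The cluster had 17.7% of its span under peaks in B6 replicate 1 and 7.41 to 11.5% in the other 5 lists. The third Hist1 sub-cluster had 5.10% of its span under peaks in B6 replicate 1 and 2.01 to 3.76% in the others. The other gene of the Hist2 span, Bola1, had a peak in all 6 lists too.

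**Figure D2:**
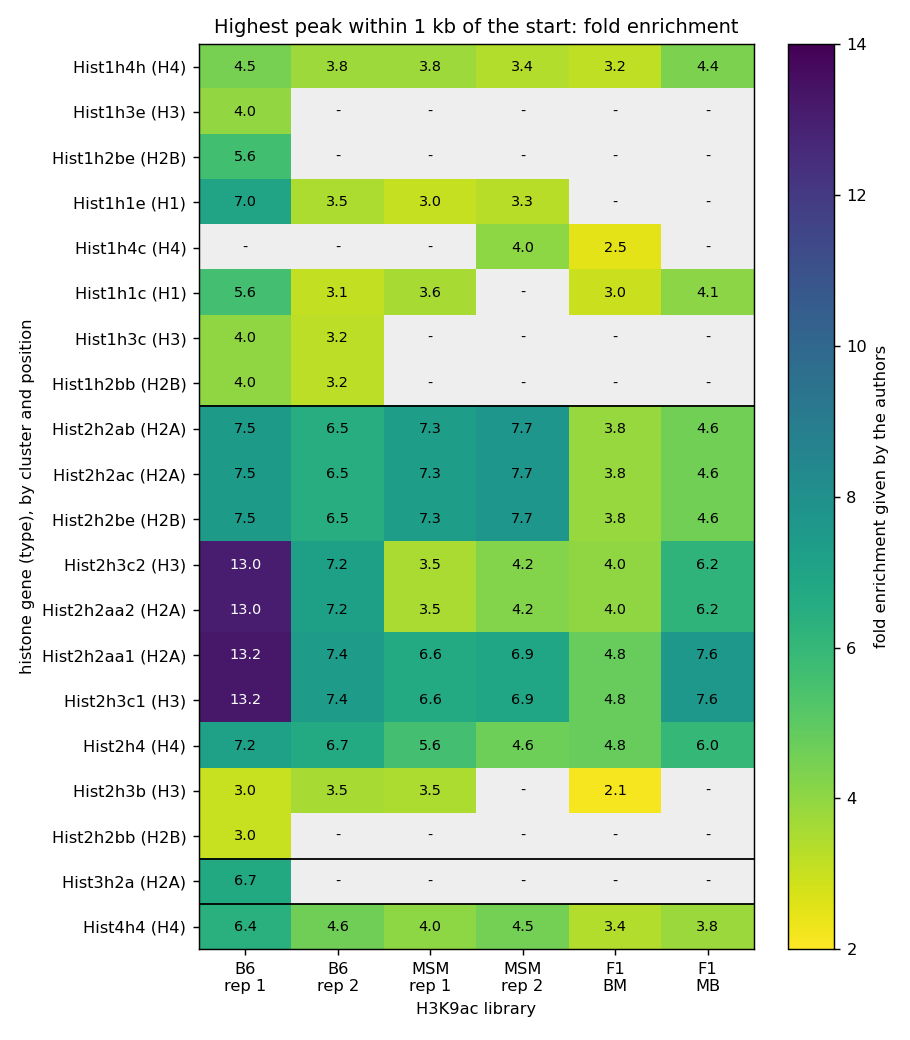
Fold enrichment, as given by the authors, of the highest peak within 1 kb of the start for the 20 histone genes with a peak in at least 1 list (rows, by cluster and position, histone type in brackets) in the 6 libraries (columns). Grey cells with a dash mark no peak. Hist1 rows are filled in part, except Hist1h4h in all 6, with folds from 2.48 to 6.97, and most Hist2 rows are filled in all 6 libraries with folds up to 13.2. Genes with equal rows share a peak, and the other 47 histone genes had none.

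Hist2h2ab, Hist2h2ac and Hist2h2be, with H2A, H2A and H2B products, have their starts within 2 kb and share their highest peak. Its fold was 7.47 and 6.51 in B6, 7.29 and 7.70 in MSM, 3.83 in F1 BM and 4.57 in F1 MB. Values of the strains overlapped, and both F1 libraries were below all 4 parental libraries, and F1 BM also had the lowest median fold over all starts. By rank within the list the F1 libraries, at 49.7 and 35.0, were also below the parental ones, at 53.4 to 77.2. These ranks come from lists of unequal length. B6 replicate 1 fell from 53.4 to 38.0 at an equal count of peaks and to 4.23 at an equal covered length. Among starts with a peak in all 4 parental lists it stood at 30.6. The other parental libraries stayed at 54.9 to 77.2 in these rankings. The F1 libraries were not ranked in these ways, so their order by rank was not tested. The summit lay 442 to 595 bp downstream of the Hist2h2ac start and at -834 to -681 bp from the Hist2h2be start, so it was over the H2A gene or just past its end, and not in the stretch between the starts. Among the 13 divergent pairs of histone genes with at most 1 kb between the starts (176 to 660 bp), Hist2h2ac and Hist2h2be were the only pair with a peak within 1 kb, and the 12 pairs of Hist1 had none in any list. Hist1h3c and Hist1h2bb, which share a B6 peak, also lie head to head, but with their starts over 1 kb apart.

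Hist2h4, the H4 gene of the cluster at chr3:96261682-96263311, had folds of 7.15 and 6.65 in B6, 5.59 and 4.64 in MSM, 4.80 in F1 BM and 6.02 in F1 MB. Both B6 folds exceeded both MSM folds, but these come from lists of different scale. Ranked among the starts with a peak in all 4 parental lists, Hist2h4 stood at 26.6 and 77.5 in B6 and 33.9 and 16.7 in MSM, so the strains overlapped. Its window was 99.0% unique, the highest share in Hist2. The summit lay at -589 to -307 bp from the start in the 6 lists.

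Hist2h3b, an H3 gene, had folds of 3.03 and 3.55 in B6, 3.50 in MSM replicate 1 and 2.15 in F1 BM, and no peak in MSM replicate 2 or F1 MB. Its neighbour Hist2h2bb was reached by a peak in B6 replicate 1 only, with a fold of 3.03, and this was the same peak. These 2 were the weakest genes of the cluster.

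The highest folds in both B6 lists and F1 MB belonged to an inverted duplicate, while the peak of Hist2h2ab, Hist2h2ac and Hist2h2be was higher in both MSM lists and that of Hist2h4 in F1 BM. Hist2h3c2 and Hist2h2aa2 on one side and Hist2h2aa1 and Hist2h3c1 on the other each pair an H3 gene with an H2A gene. The stretches chr3:96238462-96239647 and chr3:96246180-96247365 match over 1186 bp with 1 mismatch when one is reverse-complemented (99.9% identity). They hold the starts of the H3 genes but not the H2A genes, which lie at chr3:96239749-96240276 and chr3:96245497-96246082. The match was taken from 1 alignment without gaps, so the full length of the duplicate was not measured. The highest peak of the Hist2h3c2 and Hist2h2aa2 copy had a fold of 13.0 and 7.16 in B6, 3.50 and 4.24 in MSM, 3.99 in F1 BM and 6.21 in F1 MB. That of the Hist2h2aa1 and Hist2h3c1 copy had a fold of 13.2 and 7.42 in B6, 6.65 and 6.93 in MSM, 4.77 in F1 BM and 7.62 in F1 MB.

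Of the copies, the second had the higher fold in every list, by ratios of 1.01 and 1.04 in B6, 1.90 and 1.63 in MSM, 1.19 in F1 BM and 1.23 in F1 MB. Folds of the copies were nearly equal in B6 and unequal in MSM, and both F1 libraries lay between the strains. On the log2 scale the mean ratio was 0.04 ± 0.02 for B6 and 0.82 ± 0.15 for MSM (SD, n = 2 each). The difference of 0.78 was larger than the pooled SD within strains, 0.11 (exact permutation test, two-sided p = 0.333, the smallest that 2 against 2 libraries allow). This ratio was chosen after its values were seen.

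Under the highest peak, 5.84 to 8.70% of 50-base words were unique in the genome for the first copy and 5.59 to 14.7% for the second, so most single 50-base reads there fit more than 1 place in the reference. On which copy the authors' mapping placed such reads was not tested. A second peak upstream of Hist2h2aa1, in which 100% of words were unique, was present in all 6 lists. Its fold was 6.31 and 6.83 in B6, 4.88 and 5.49 in MSM, 4.72 in F1 BM and 3.91 in F1 MB. Both B6 folds were above all others for this unique flank, but folds of different lists are not on 1 scale. The fold was below the list's median over starts with a peak in B6 replicate 1 (7.17), MSM (5.86 and 5.91) and F1 MB (5.17). It was above that median in B6 replicate 2 (5.05) and F1 BM (3.84). The rank of this flank within the lists was not computed. On the side of Hist2h2aa2 a peak of unique words only was found in B6 replicate 1 alone, with a fold of 3.48.

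**Figure D3:**
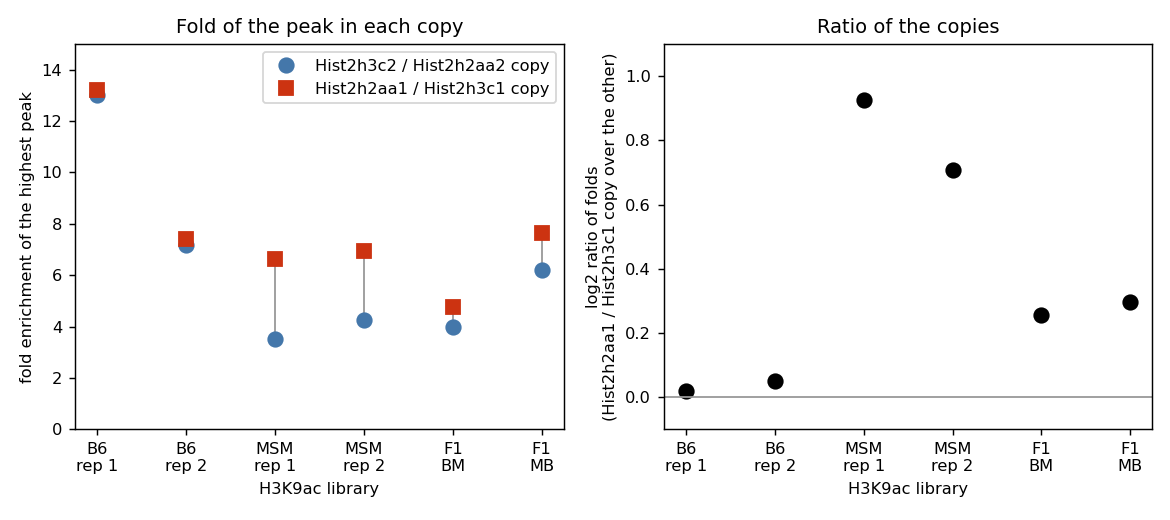
Left, fold enrichment (y axis) of the highest peak at the Hist2h3c2 and Hist2h2aa2 copy (circles) and the Hist2h2aa1 and Hist2h3c1 copy (squares) in each library (x axis). Right, log2 of the ratio of the folds, second copy over first, with 0 marking equal folds. The B6 libraries lie at 0.02 and 0.05, the MSM libraries at 0.93 and 0.71, F1 BM at 0.26 and F1 MB at 0.29.

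Of the 3 genes outside Hist1 and Hist2, Hist4h4, at chr6:136801553-136804415, had a peak in all 6 lists. Its fold was 6.40 and 4.60 in B6, 4.03 and 4.50 in MSM, 3.39 in F1 BM and 3.79 in F1 MB, with both MSM folds below both B6 folds. The summit lay 283 to 334 bp downstream of the start in the 6 lists. Hist3h2a had a peak in B6 replicate 1 only, with a fold of 6.72, and Hist3h2ba had none in any list.

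The strains were compared over the 67 genes. The B6 libraries had a peak at 17 ± 2.83 genes and the MSM libraries at 12.5 ± 0.707 (SD, n = 2 each strain), so MSM minus B6 was -4.5 genes against a pooled SD within strains of 2.06 (exact permutation test, two-sided p = 0.333, its lower limit). All 4 parental libraries fell in the order of the strains, with 19 and 15 genes in B6 and 13 and 12 in MSM. That order was lost with the same covered length in every list, with 8 and 15 genes in B6 and 8 and 7 in MSM, and with a −log10 q of at least 5, with 19 and 11 in B6 and 11 and 10 in MSM, and with a window of 2 kb, with 23 and 17 in B6 and 17 and 16 in MSM (exact permutation p = 0.667 for each). The shares of all starts with a peak moved too. With the same covered length they were 16.2 and 27.9% in B6 and 22.8 and 23.5% in MSM. With a −log10 q of at least 5 they were 42.1 and 23.7% in B6 and 32.1 and 32.9% in MSM. With the 2-kb window they were 45.2 and 28.8% in B6 and 36.6 and 37.2% in MSM. The order of the strains held when lists were cut to an equal count of peaks, with 14 and 15 genes in B6 and 10 and 9 in MSM (-5 genes, exact permutation p = 0.333). There 33.3 and 27.9% of all starts had a peak in B6 and 28.9 and 29.4% in MSM. In the full lists with the 1-kb window, B6 replicate 1 had the largest and B6 replicate 2 the smallest share of all starts among the 4, so the lists themselves did not separate by strain. Without B6 replicate 1 the difference was -2.5 genes, and without B6 replicate 2 it was -6.5. Among the 18 genes with at least 90% unique words it was -1, with 7 and 5 genes in B6 and 5 and 5 in MSM.

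The mean length under peaks in the windows was 322.5 and 145.3 bp in B6 and 146.1 and 131.7 bp in MSM, with 158.9 bp in F1 BM and 117.0 bp in F1 MB. The strains overlapped, with means of 233.9 ± 125 bp for B6 and 138.9 ± 10.1 bp for MSM (SD, n = 2 each). The difference of -95.0 bp was near the pooled SD of 88.9 bp (exact permutation p = 0.667). It was -6.42 bp without B6 replicate 1, the library with the longest list, and -183.6 bp without B6 replicate 2. With lists of equal size the difference was smaller and the strains did not overlap. When each list was cut to an equal count of peaks it was -59.0 bp, with 195.9 and 145.3 bp in B6 and 113.8 and 109.5 bp in MSM (exact permutation p = 0.333). With the same covered length it was -42.0 bp, with 132.4 and 145.3 bp in B6 and 98.8 and 94.9 bp in MSM (exact permutation p = 0.333).

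For the 11 genes with a peak in all 4 parental lists, the fold was ranked among all gene starts with a peak in the same list. This rank does not depend on the scale of the folds, but it moves with the number of weak peaks a list holds. The median percentile over the 11 genes was 53.4 and 77.2 in B6, 45.4 and 25.8 in MSM, 52.0 in F1 BM and 50.2 in F1 MB, where the F1 medians are over the members among them with a peak. Its mean was 65.3 ± 16.8 for B6 and 35.6 ± 13.8 for MSM (SD, n = 2 each). The difference of -29.7 points exceeded the pooled SD of 15.4 (exact permutation p = 0.333, the smallest possible), and it was -17.8 without B6 replicate 2 and -51.8 without MSM replicate 2, when 13 genes qualified. With the same number of peaks kept in every list, it was -2.59 over 9 genes, with 38.0 and 79.1 in B6 and 54.3 and 57.7 in MSM (exact permutation p = 1). When the 11 genes were ranked only among the 5579 starts with a peak in all 4 parental lists, an alternative added after seeing the data, it was -27.7, with 30.6 and 75.4 in B6 and 33.9 and 16.7 in MSM (exact permutation p = 0.667). The strains overlapped in both.

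Gene by gene, both MSM percentiles were below both B6 percentiles for 8 of the 11 genes, where 18.6% of the 5579 starts with a peak in all 4 parental lists were so and 16.7% were the other way round. The 8 genes were Hist1h1e, Hist1h4h, Hist2h4, Hist4h4 and the 4 genes of the Hist2 duplicate, which share 2 peaks. The count depended on the lists. It was 6 of 9 genes with the same number of peaks (20.2% of starts), 4 of 7 with the same covered length (16.1%), and 6 of 11 when ranked among the 5579 shared starts (19%). The 4 genes of the duplicate were counted under each of these settings, while Hist1h4h and Hist2h4 overlapped among the shared starts. The first copy of the duplicate stood at 91.2 and 84.6 in B6 and 5.59 and 17.0 in MSM, with 54.3 in F1 BM and 68.8 in F1 MB. Among the shared starts it stood at 85.1 and 83.4 in B6 and 2.99 and 10.1 in MSM. Few words under this peak are unique, as given above. Hist4h4 stood at 40.3 and 38.8 in B6 and 13.4 and 22.6 in MSM. Hist2h2ab, Hist2h2ac and Hist2h2be, with 53.4 and 77.2 in B6 and 71.0 and 74.0 in MSM, overlapped. MSM reads were placed on the B6 sequence, and the part of sequence differences between the strains in these values was not tested.

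**Figure D4:**
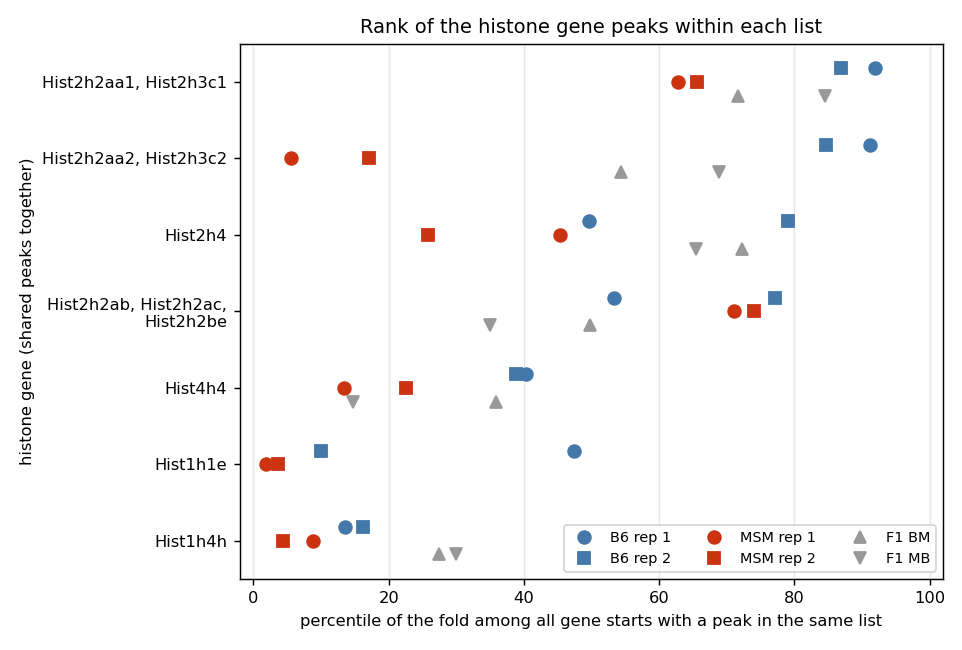
Percentile of the fold of a histone gene's highest peak among all gene starts with a peak in the same list (x axis) for the 11 genes with a peak in all 4 parental lists, genes with a shared peak in 1 row (y axis). Blue marks are B6, red marks MSM (circle replicate 1, square replicate 2), grey triangles F1 BM (up) and F1 MB (down). In all rows but that of Hist2h2ab, Hist2h2ac and Hist2h2be, both red marks lie to the left of both blue marks, with ranks taken in lists of unequal length.

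Many histone genes are near copies of each other, which limits where a 50-base read can be placed. For each window, the share of 50-base words found only once in the reference genome was computed on both strands. Its median was 80.6% for the histone genes and 100% for all starts, and 18 of the 67 histone genes (26.9%) reached 90%, against 86.7% of all starts. The least unique were Hist1h2ao, Hist1h2ap, Hist1h2bq and Hist1h2br with 0%, and Hist1h4m and Hist1h4n with 6.63 and 7.65%. None of these 6 had a peak in any list, and of all 647 starts under 10% unique, 93.2% had none. At these genes the lack of a peak cannot be told apart from the lack of placed reads.

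Over all starts, having no peak was more frequent at a lower share of unique words, with 88.4% at 10 to 49% unique, 76.1% at 50 to 89% and 50.0% from 90%. Of the 35 Hist1 genes with 50 to 89% unique words, 31 had no peak in any list. Hist2h3c1 and Hist2h3c2, at 21.4 and 22.4%, had peaks in all 6 lists. Of the 13 Hist1 genes with at least 90% unique words, 9 had no peak in any list (69.2%), against the 50.0% of all starts. Both clusters had low shares, with a median of 77.8% in Hist1 and 72.2% in Hist2.

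**Figure D5:**
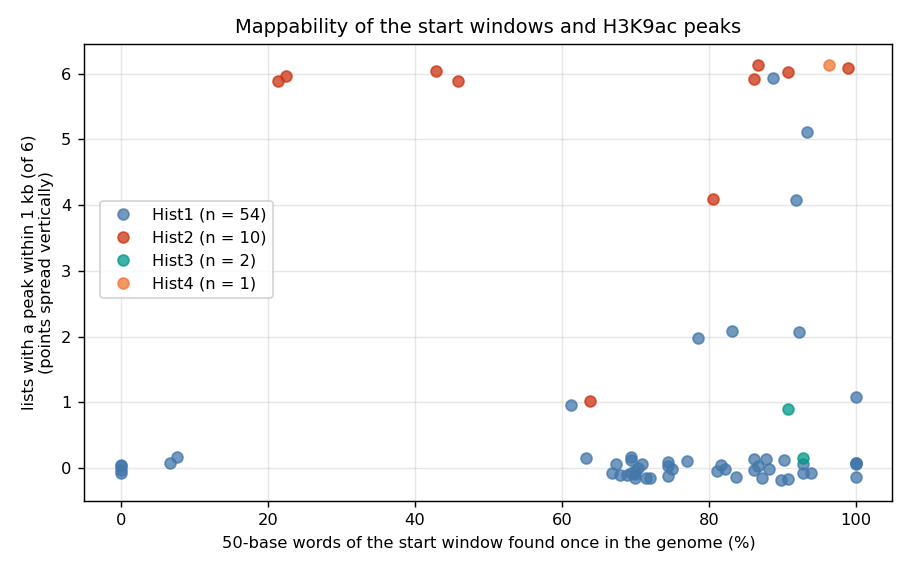
Share of 50-base words of the 2001-bp start window found once in the genome (x axis, %) and number of lists with a peak within 1 kb (y axis, 0 to 6, points spread vertically so that they can be seen) for each of the 67 histone genes, coloured by cluster. Hist1 genes with no peak lie between 0 and 100% unique, and 4 Hist2 genes under 50% unique had a peak in all 6 lists.

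The windows of histone genes were rich in CpG sites, with a median of 91 against 61 for all starts, and 89.5 in Hist1 against 118.5 in Hist2. Of all starts with 90 to 119 CpG sites, 40.4% had a peak in all 6 lists and 26.6% had none. Of the 24 Hist1 genes in that range, 1 had a peak in all 6 lists and 21 had none. Of the 4 genes of Hist2 to Hist4 in it, 2 had a peak in all 6 and each had one in at least 1 list.

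Genes around histone supply and the cell cycle were looked at in the same way, from lists of known genes, and over all starts 23.6% had a peak in all 6 lists and 54.2% in none. Of 13 replication-independent histone variant genes, 2 had a peak in all 6 lists and 5 had none. The former were H1f0, the linker variant of resting cells, with folds of 16.6 and 9.94 in B6, 17.1 and 13.8 in MSM, 8.20 for F1 BM and 11.1 for F1 MB, and H3f3a, which encodes H3.3, with folds from 3.10 to 8.05. H3f3b was among the 5 genes with no peak in any list. The H1f0 folds exceeded those of Hist1h1c and Hist1h1e in every list.

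Of 18 genes for histone gene transcription, histone message processing and histone chaperones, 4 had a peak in all 6 lists and 2 had none. The 4 were Cpsf2 and Sympk, of the 3′ end cleavage machinery, and the H3 and H4 chaperones Asf1a and Asf1b. Npat, the histone locus coactivator, had a peak in 3 lists, with folds of 5.02 in B6 replicate 1, 3.30 in MSM replicate 1 and 3.15 in F1 BM, and Slbp, which binds the stem-loop, also had one in 3. Of 20 S phase and mitosis genes, 1, Mcm7, had a peak in all 6 lists and 11 had none.

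The tissue label was checked on marker genes. Of 7 hepatocyte markers found in the annotation, 6 (Alb, Apoa1, Apob, Ttr, Cps1 and Fgb) had a peak in all 6 lists, and Hnf4a had none. Of the 5 macrophage and 4 stellate cell markers 0 had a peak in any list. Of the 5 endothelial markers 3 and 0 had one in B6, 2 and 4 in MSM, 4 in F1 BM and 0 in F1 MB, so the counts of the strains overlapped, and 1 of 4 cholangiocyte and 1 of 4 lymphocyte markers had one in B6 replicate 1 only. The part of other cell types in the histone gene peaks was not tested.

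The lists held 22968 and 11619 peaks in B6, 17310 and 17584 in MSM, 20173 in F1 BM and 13235 in F1 MB. With 11619 peaks kept in every list, Hist1 had 0 to 5 of 54 and Hist2 8 to 9 of 10 genes with a peak in a list, against 26.3 to 33.3% of all starts. The lists hold no read counts, so absence of a peak and a peak too weak for the depth of a library cannot be told apart.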

How the data were processed

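H3K9ac ChIP-seq peak lists of 6 mouse livers were analysed, and 6 input libraries were not analysed here. The authors trimmed 50-base read pairs with Trim Galore and mapped them to mm10 (GRCm38). The study's methods name Bowtie 2, while the submitters' processing notes list HISAT2, SAMtools and MACS2. The treatment of reads that fit several places, the control and the peak threshold are not given in the sources used here. The authors called peaks per library. The deposited fold is a linear ratio over background. The deposited −log10 p-value and −log10 q-value came from the authors' peak caller, as did the deposited score, which was not used. The lowest −log10 q of a list was 1.30 to 1.35. The summit offset deposited with each peak gave its distance from the start.

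Gene starts came from GENCODE M21, 1 per symbol, and peaks overlapping a start window of 1 kb either side by at least 1 bp were counted (Python 3.11.15 with numpy 2.4.6, scipy 1.17.1 and, for plots, matplotlib 3.10.9). Strains were compared by two-sided exact permutation of the 4 parental libraries over 6 assignments (smallest p 0.333), so no test could pass 0.05. The genes named in the text were the genes with a peak in all 6 lists, the strain-specific genes, all genes of Hist2 to Hist4, the germ cell and linker genes, and list genes. Others named for single peaks were chosen after their values were seen. The genes and lists were chosen with earlier results of these data known. Overlap counting was tested on simulated data, where 3000 of 3000 planted starts were recovered. Window size, list length, q, overlap, gene start, uniqueness, shared windows and left-out libraries were varied.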

Additional observations from a re-analysis of the deposited data

How the results depend on the processing

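The 3 strain differences (genes with a peak, length under peaks and median fold percentile) kept their direction, lower in MSM, in every alternative run, and none could pass the threshold with 4 libraries. The exact p was 0.333 to 1 for the number of genes with a peak, 0.333 to 0.667 for the length and 0.333 to 1 for the percentile. Leaving out 1 parental library at a time gave -6.5 to -2.5 genes, -183.6 to -6.42 bp and -51.8 to -17.8 points, values with no test. The percentile difference was -2.59 points with an equal number of peaks in every list and -27.7 when ranked among the starts with a peak in all 4 parental lists, and the strains overlapped in both. It was -45.4 points with overlapping windows joined and -17.8 with a −log10 q of at least 5, and the strains overlapped in neither. The length difference was -146.6 bp among genes with at least 90% unique words and -50.4 bp with a window of 500 bp either side. In both of these the strains overlapped. The count of B6-specific genes moved from 2 to 0 when every list was trimmed to an equal covered length and with a −log10 q of at least 5, and to 1 with overlapping windows joined. It was also 0 among members of at least 90% unique words, a limit that leaves out both of these genes. It was 2 to 6 with 1 library left out. MSM-specific genes stayed at 0 except with 1 library left out, where the count was 0 to 1. For the counts with 1 library left out, the shares of all starts were not computed. The window of 2 kb, the coding start, the rank among shared starts, the gene-by-gene ranks under other lists and the set without the 4 genes of the Hist2 duplicate were alternatives chosen after seeing the data. With the 2-kb window 25 genes had a peak in at least 1 list and 42 had none, and with the coding start 21 and 46. The share of all starts with a peak in at least 1 list was not computed for these settings. In single lists 28.8 to 45.2% of all starts had a peak with the 2-kb window and 21.1 to 34.2% at the coding start. The replicate block, which pairs libraries of the same number, gave the same differences, -4.5 genes, -95.0 bp and -29.7 points, with exact sign-flip p = 0.5, the smallest possible. The numbers carry no shared origin, and the correlation of same-numbered deviations over 9941 starts was -0.02.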
